A study of Mus musculus with 6 samples.

Results

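The genes of the synaptic vesicle and of the machinery that releases its content were followed in parvalbumin-positive sensory neurons with and without the ribonuclease Dicer. Members were taken by gene name: the vesicle SNAREs of the Vamp family, SNAP proteins, syntaxins, syntaxin-binding proteins, synaptotagmins, complexins, Rab3 GTPases, RIM proteins, SV2 proteins and synapsins, together with Snap91, Bsn, Pclo and Syp. This gave 71 genes in 72 rows, of 31032 distinct names in 31469 rows of the whole table. Of the 71 genes, 63 averaged 1 TPM or more across the 6 libraries and were tested. TPM, the deposited unit, is a length-scaled share of each library, so levels can be set side by side between genes.

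A vesicle fuses when its Vamp protein zips into a bundle with syntaxin and SNAP-25 on the plasma membrane. Syntaxin-binding proteins guide or restrain the assembly, complexin holds the bundle near fusion, and a synaptotagmin triggers fusion when calcium enters. Rab3 GTPases and RIM proteins bring vesicles to the active zone, which the scaffolds Bassoon and Piccolo organise. Proprioceptors use this machinery for fast, repeated glutamate release from their endings in the spinal cord.

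All 6 libraries were from C57BL/6 mice at postnatal day 21, from dorsal root ganglia at lumbar level 4. The wild-type group had 3 libraries, and the other 3 were from mice in which Cre under parvalbumin control removes Dicer, so that deletion is limited to cells that have switched on parvalbumin. How the cells were collected, whether the wild-type mice carry Cre or an altered Dicer allele, and whether libraries are separate animals is not stated in the sources used. The p-values therefore measure only the spread between these samples.

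A library had from 13237 to 13960 rows at 1 TPM or more. Dicer1, the targeted gene, was at 36.7, 26.0 and 48.7 TPM in wild type against 24.0, 20.8 and 21.8 TPM in knockout (log2 difference -0.68, limma adjusted p = 0.104), and a value over the whole gene cannot single out the exons that Cre deletes. Pvalb, which defines the cells, was present in all 6 libraries and fell from 22.6 ± 2.71 to 7.23 ± 5.85 TPM (adjusted p = 0.0452). Replicate 3 of each group carried Y-linked Ddx3y (33.3 and 32.7 TPM), and the other 4 libraries carried Xist (22.2 to 69.5 TPM), so both groups hold libraries of each sex. Of 10 listed proprioceptor markers 9 were found by name and tested. Of these 8 fell (Pvalb, Runx3, Etv1, Spp1, Heg1, Nxph1, Vstm2b and Esrrg), and Ntrk3 did not pass. Their sums were 1651 to 1783 TPM in wild type and 638 to 867 TPM in knockout. The lists were chosen with earlier results of these data known, so this count is not independent evidence of a change in the cells. Of 10 satellite glia markers 2 fell, with sums of 827 to 1840.0 TPM and 438 to 969.7 TPM. Myelinating Schwann cell markers summed to 448 to 527 TPM and 1039 to 1391 TPM (1 of 3 tested rose). Peptidergic nociceptor markers summed to 127 to 340.1 TPM and 139.7 to 199.7 TPM (2 of 4 fell), and non-peptidergic ones to 43.1 to 75.8 TPM and 119.8 to 194 TPM (1 of 4 rose). Low-threshold mechanoreceptor markers summed to 218 to 333 TPM and 308 to 375 TPM (1 rose and 1 fell of 6). No marker was at 0 in all 6 libraries, and the part of these lists in the results on release genes was not tested, apart from a fit that takes the mean satellite glia level as covariate. Without values for single cells, fewer cells of a type and less RNA per cell cannot be told apart.

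Release genes were abundant in these neurons, and most did not pass the test. Snap25, the SNARE of the plasma membrane, was the fifth most abundant row of the table, at 14276, 12986 and 11323 TPM in wild type and 11168, 11374 and 10606 TPM in knockout. The groups overlapped, and the difference on the log2(TPM + 1) scale, used for all differences here, was -0.21 (SE 0.13, limma adjusted p = 0.377). The members together held 2.14% to 2.43% of all TPM in wild-type libraries and 2.01% to 2.09% in knockout libraries. Snap25 alone held 52.8% to 58.8% of the members' sum. Besides Snap25, Cplx1 (complexin 1) exceeded 1000 TPM, 20 members lay between 100 and 1000 TPM, 26 between 10 and 100 and 15 between 1 and 10. The 8 members below a mean of 1 TPM were Syt16, Stx19, Syt13, Cplx3, Syt10, Cplx4, Rims4 and Syt8, and the last 3 were listed at 0 in every library.

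**Figure D1:**
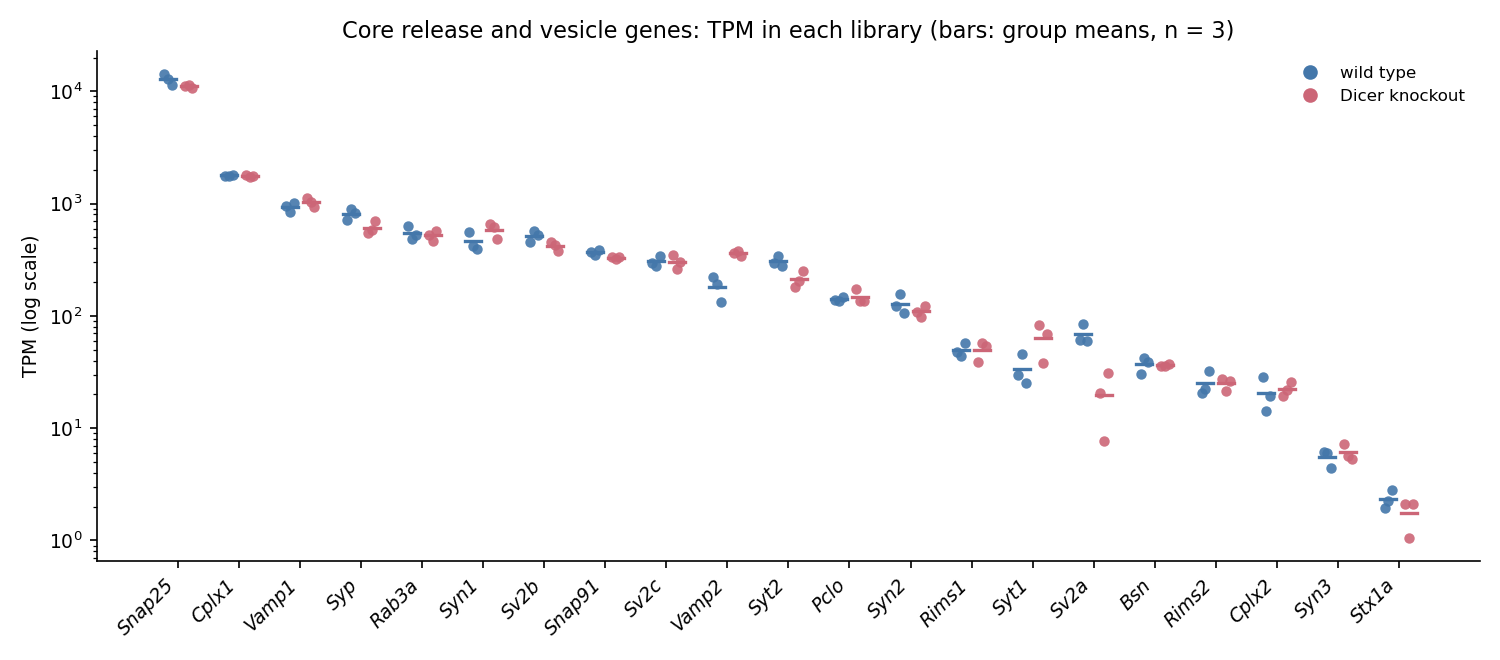
TPM on a log axis for genes of the release core and the vesicle membrane, ordered by mean level; each point is a library (3 wild type, 3 Dicer knockout) and each bar a group mean. Snap25 is the highest and Stx1a the lowest. The groups do not overlap for Vamp2, Sv2a, Syp, Syt2, Sv2b and Snap91, and of these Vamp2 and Sv2a passed limma.

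Of the 63 tested members, 3 rose (Vamp2, Rab3b and Rab3d), 6 fell (among them Sv2a, Stxbp6, Vamp8, Rab3c and Stx7) and 54 did not pass limma's test at an adjusted p of 0.05 over all 13787 tested rows. The called members are 14.3% of those tested, beside 5.03% of all tested rows (1.86% higher and 3.17% lower). Over all rows that is 256 higher and 437 lower, against 375 and 385 after median-of-ratios rescaling. Groups did not overlap for 20 tested members, 5 above and 15 below wild type, or 31.7% beside 28.9% of all tested rows. The median log2 difference was -0.04 over the tested members and -0.05 over all tested rows. Without knockout replicate 1, 0 of the 63 members passed limma, with a lowest adjusted p of 0.0518, while 4 above and 12 below wild type had an unadjusted p below 0.05. Without wild-type replicates 1, 2 and 3 in turn 2, 2 and 1 members were called lower, and 3 without knockout replicate 2. Without the intensity trend, Rab3b and Rab3d were the members that passed (2 higher and 0 lower, with 10 below wild type at an unadjusted p under 0.05).

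**Figure D2:**
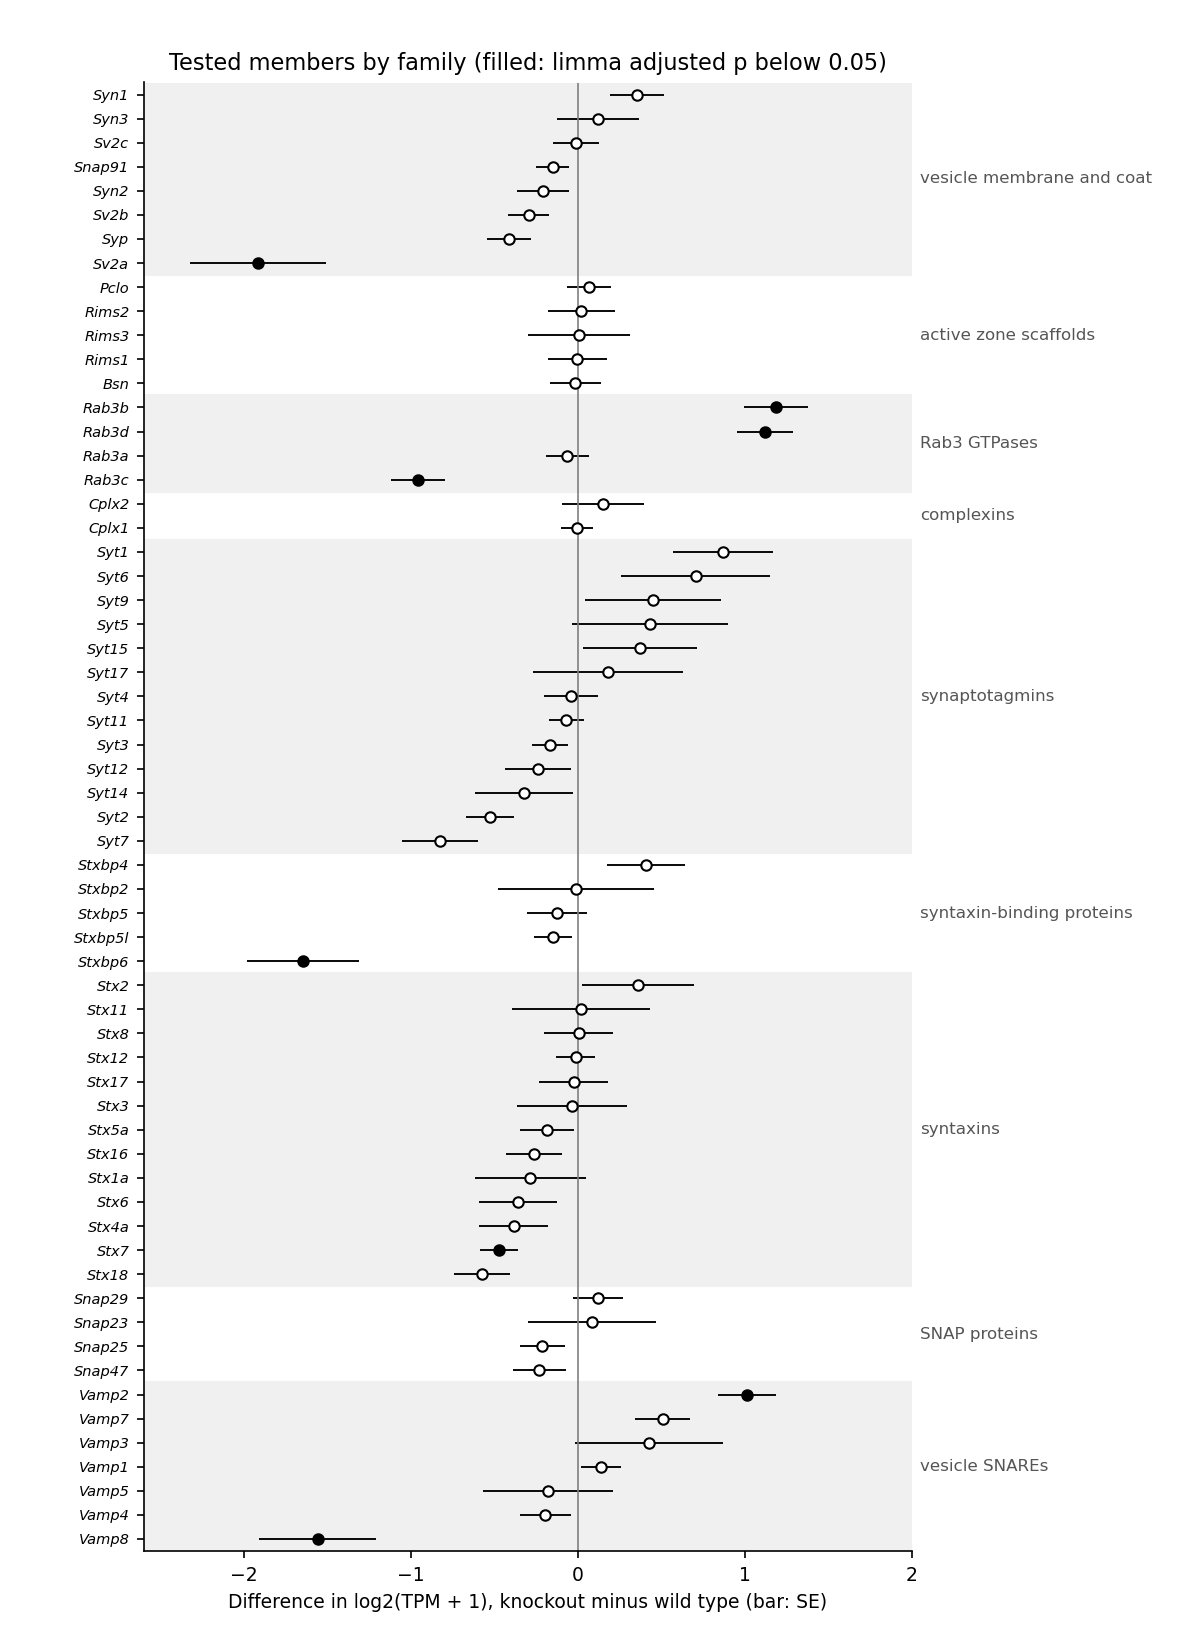
Difference in log2(TPM + 1), knockout minus wild type, with its SE for 61 tested members by family; filled points passed limma at an adjusted p of 0.05. The 8 filled points lie in 5 families, and the Rab3 family has 3 of them, on both sides of 0.

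**Figure D3:**
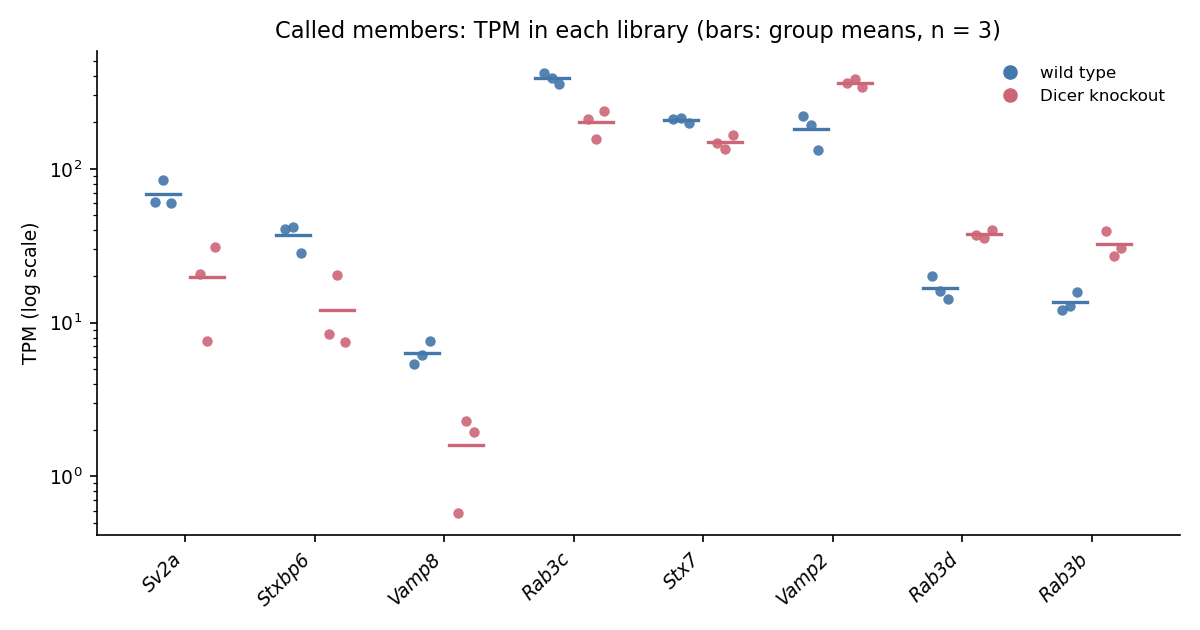
TPM on a log axis for 8 called members in each library (3 wild type, 3 Dicer knockout), with group means as bars. In each of these genes the groups do not overlap.

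Among the vesicle SNAREs, Vamp2 rose while Vamp1, its more abundant relative here, did not pass. Vamp2 (synaptobrevin 2), the main vesicle SNARE of most forebrain synapses, was at 220.0, 192 and 133 TPM in wild type and 359.6, 381 and 341 TPM in knockout (chr11:69088490-69092384, GRCm38, as are all gene positions here). Every knockout library lay above every wild-type library. Vamp2 averaged 182 ± 44.3 and 361 ± 20.4 TPM (SD, n = 3 each), and the log2 difference was 1.01 (SE 0.17, adjusted p = 0.0154). The call was kept in 14 of 18 alternatives and lost, among others, without knockout replicate 1 (adjusted p = 0.0663) or 2 (0.0618), and with the satellite glia covariate (0.0806). Vamp1 (synaptobrevin 1), which prevails at neuromuscular and many spinal synapses, was at 960.1, 840.1 and 1019 TPM in wild type and 1124, 1043 and 935 TPM in knockout (log2 difference 0.14, SE 0.12, adjusted p = 0.517).

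Within the summed TPM of Vamp1, Vamp2 and Vamp3, Vamp2 held 18.4%, 18.6% and 11.4% in wild type and 24.0%, 26.6% and 26.3% in knockout. Vamp1 held 80.5% to 87.4% in wild type and 72.3% to 75.1% in knockout, the largest share in every library. Their sum was 1193, 1036 and 1166 TPM in wild type and 1496, 1433 and 1293 TPM in knockout. Shares in this and the other families are descriptions: with 3 libraries against 3, an exact two-sided permutation test cannot go below p = 0.1.

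The other vesicle SNAREs serve mainly traffic through endosomes, lysosomes and the plasma membrane. Vamp8, which acts in late endosome fusion and in secretion from non-neuronal cells, was at 5.36, 6.17 and 7.65 TPM in wild type and 0.58, 2.31 and 1.94 TPM in knockout. It fell by 1.56 on the log2 scale (SE 0.35, adjusted p = 0.04; chr6:72385223-72390703), and the call was kept in 6 of 17 alternatives and lost without any single library (adjusted p from 0.0278 to 0.155 over all alternatives). Vamp7, a SNARE of lysosomes and growing neurites, was at 45.5, 35.5 and 29.8 TPM in wild type and 52.0, 53.4 and 51.2 TPM in knockout. The Vamp7 groups did not overlap, and the log2 difference of 0.51 did not pass (adjusted p = 0.105). Vamp4 was at 159 ± 14.9 and 140.0 ± 25.3 TPM in wild type and knockout, Vamp3 at 9.97 ± 5.46 and 12.6 ± 4.56 TPM, and Vamp5 at 1.15 ± 0.222 and 0.953 ± 0.598 TPM.

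Dicer makes microRNAs, which pair with messenger RNA through bases 2 to 8, the seed, mostly in the 3′ untranslated region. The annotated 3′ untranslated regions (GENCODE vM21) of 11525 genes, 62 of them members, were searched for the 7-base complements of the seeds of 17 microRNAs chosen from general knowledge of neurons. The levels of these microRNAs were not measured here. Vamp2 holds 4 matches in 1718 bases, and they are shown because Vamp2 is the most abundant member that rose. MicroRNAs (RefSeq) are printed 5′ to 3′ with the seed in capitals, and sites (GRCm38) 5′ to 3′ on the transcript's strand with the match in capitals.
mmu-miR-34a-5p: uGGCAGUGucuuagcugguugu
Vamp2 at chr11:69091752-69091781, plus strand: tgtgggggtcatCACTGCCttggggaggag
Vamp2 at chr11:69091882-69091911, plus strand: tattacccccatCACTGCCcagctcctctg
Vamp2 at chr11:69091934-69091963, plus strand: gggggtactagtCACTGCCaatatgtgttg
mmu-miR-153-3p: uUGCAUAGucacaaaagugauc
Vamp2 at chr11:69090974-69091003, plus strand: catttgcatctgCTATGCAatagcccctct

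The miR-34a match, CACTGCC, occurs in 18% of all regions searched and in 20 of the 62 members (32.3%). The miR-153 match, CTATGCA, occurs in 9.85% of regions and in 12 members (19.4%). The members' regions had a median length of 2237 bases, beside 1261 bases over all regions. A match describes the sequence and is not a measured site.

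The Rab3 family moved in both directions. These small GTPases of the vesicle surface bind RIM at the active zone. Rab3a, the most abundant of them here, was at 631, 481 and 529 TPM in wild type and 529, 468 and 566 TPM in knockout (log2 difference -0.07, SE 0.13, adjusted p = 0.799), and its sign depended on the scaling (0.01 after median-of-ratios rescaling). Rab3c, next in level, was at 421, 389 and 354 TPM in wild type and 211, 155 and 239 TPM in knockout. Its groups did not overlap, and it fell by 0.96 on the log2 scale (SE 0.16, adjusted p = 0.0145; chr13:110054187-110280996). The Rab3c call was kept in 15 of 18 alternatives and lost, among others, without knockout replicate 1 (adjusted p = 0.0546) and with the satellite glia covariate (0.0798).

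The least abundant Rab3 genes rose. Rab3b, described at a subset of synapses and in pituitary secretion, was at 12.1, 12.9 and 15.9 TPM in wild type and 39.6, 27.2 and 30.4 TPM in knockout (log2 difference 1.18, SE 0.19, adjusted p = 0.0128; chr4:108879063-108943324). Rab3d, best known from exocrine secretion, was at 20.2, 16.0 and 14.3 TPM in wild type and 36.9, 35.3 and 40.2 TPM in knockout (log2 difference 1.12, SE 0.17, adjusted p = 0.01; chr9:21907491-21918192). Neither gene's groups overlapped. Each call was kept in 16 of 18 alternatives, the satellite glia covariate among them. Both were lost without knockout replicate 1 (adjusted p = 0.0595 for Rab3b and 0.0518 for Rab3d) and in replicates 1 and 2 of each group alone (0.0529 and 0.0765).

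The shares of the 4 Rab3 genes did not overlap between the groups. Rab3c held 38.8%, 43.3% and 38.7% of their summed TPM in wild type and 25.9%, 22.6% and 27.3% in knockout. Rab3a held 53.5% to 58.2% in wild type and 64.6% to 68.2% in knockout. Rab3b held 1.11% to 1.74% in wild type against 3.48% to 4.85% in knockout, and Rab3d 1.57% to 1.87% against 4.52% to 5.14%. The sum of the 4 genes was 1084, 899 and 913 TPM in wild type and 817, 686 and 876 TPM in knockout, lower in each knockout library than in any wild-type library.

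**Figure D4:**
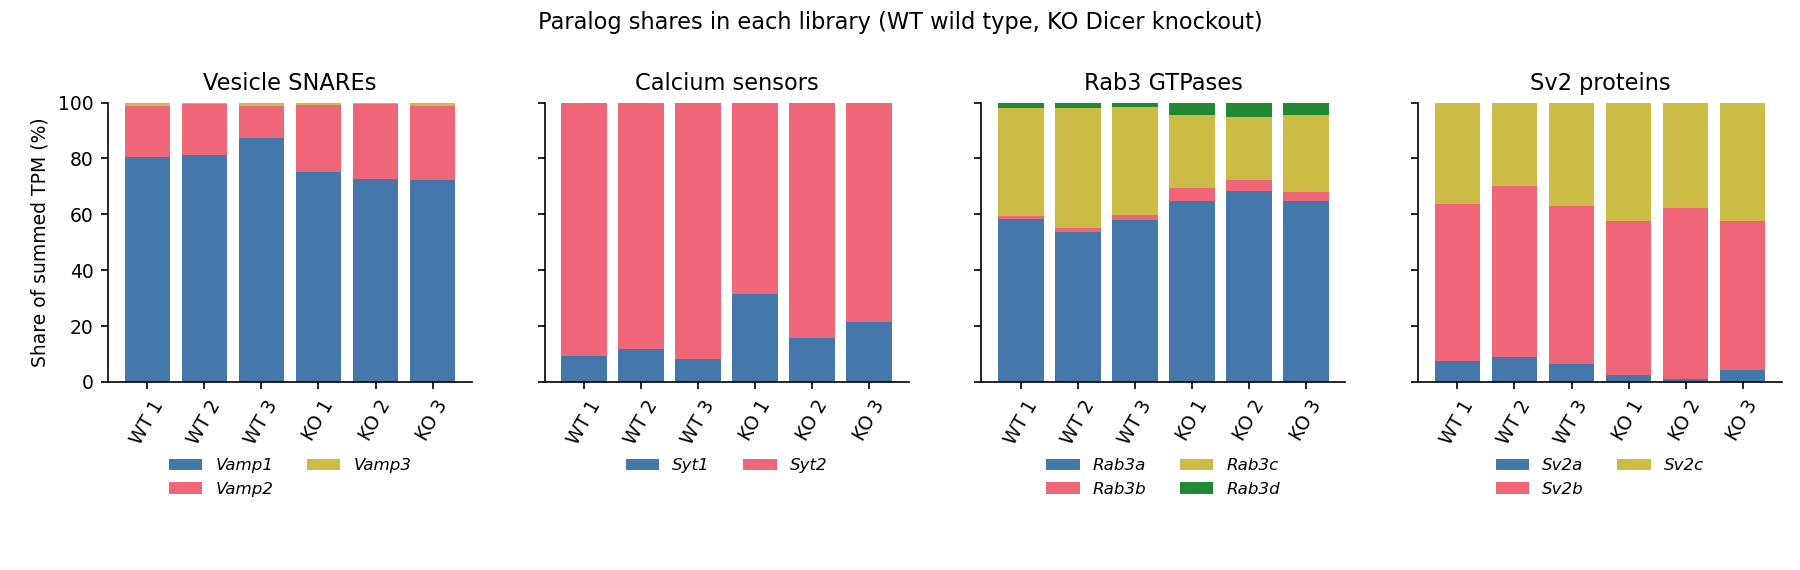
Share of the summed TPM held by each gene of paralog families in each of 3 wild-type (WT) and 3 knockout (KO) libraries. The Vamp2, Syt1, Rab3a, Rab3b, Rab3d and Sv2c shares are larger in each knockout library than in any wild-type library. The Vamp1, Syt2, Rab3c and Sv2a shares are smaller in each knockout library than in any wild-type library.

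The start regions of Rab3b, Rab3d and Rab3c are shown because these close relatives changed in opposite directions. Each is 300 bases that span the start annotated in RefSeq (GRCm38.p6), 5′ to 3′ on the gene's strand, and capitals mark the GC box GGGCGG on either strand, overlapping matches included.
Rab3b, chr4:108878820-108879119, plus strand: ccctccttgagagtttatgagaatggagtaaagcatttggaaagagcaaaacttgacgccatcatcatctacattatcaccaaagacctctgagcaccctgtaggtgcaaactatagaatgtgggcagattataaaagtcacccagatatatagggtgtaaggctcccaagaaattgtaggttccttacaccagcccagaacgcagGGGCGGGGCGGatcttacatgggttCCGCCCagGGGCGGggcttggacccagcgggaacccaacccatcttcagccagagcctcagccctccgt
Rab3d, chr9:21918134-21918433, minus strand: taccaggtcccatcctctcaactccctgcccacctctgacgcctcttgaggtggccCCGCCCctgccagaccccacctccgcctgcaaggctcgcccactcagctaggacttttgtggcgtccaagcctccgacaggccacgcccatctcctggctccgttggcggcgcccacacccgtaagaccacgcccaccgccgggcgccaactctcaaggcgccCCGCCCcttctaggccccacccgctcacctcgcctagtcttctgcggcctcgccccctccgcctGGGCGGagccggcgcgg
Rab3c, chr13:110280157-110280456, minus strand: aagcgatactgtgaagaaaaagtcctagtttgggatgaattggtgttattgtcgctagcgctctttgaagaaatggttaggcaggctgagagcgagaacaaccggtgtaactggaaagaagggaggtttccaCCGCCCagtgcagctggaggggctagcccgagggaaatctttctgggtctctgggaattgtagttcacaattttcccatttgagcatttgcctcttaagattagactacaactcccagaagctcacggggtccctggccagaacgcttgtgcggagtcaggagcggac

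The GC box, a motif bound by Sp1-type factors, was found 4 times in the Rab3b region, 3 times in the Rab3d region and 1 time in the Rab3c region. It occurs in 35.7% of 32851 start regions of this length. The Rab3d region had 71.0% G and C with 26 CpG, against 51.7% with 8 for Rab3b and 50.7% with 11 for Rab3c. The medians over all start regions were 52.7% and 7 CpG. The Rab3b region holds TATAAA, the TATA box letters, as do 13.6% of all regions on either strand. The Rab3c region holds CCAAT on the opposite strand, printed above as attgg, and 37.4% of all regions hold it on either strand.

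Repeated seed matches lie in the Rab3 genes that rose and in the Rab3 gene that fell. Rab3d has 2 matches for miR-34a and 1 for miR-125b in 2993 bases, and Rab3b has 3 for miR-218 and 1 for miR-7a in 2511 bases. Rab3c has 9 matches for 5 of the microRNAs in 7628 bases, several of them for miR-96, a microRNA known from sensory cells. The repeated matches shown carry the same marks as those of Vamp2.
Rab3d at chr9:21908315-21908344, minus strand: ctcatctgaagaCACTGCCaccaagcctga
Rab3d at chr9:21907546-21907575, minus strand: actctggtctggCACTGCCtattctccctg
mmu-miR-218-5p: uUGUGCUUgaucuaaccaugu
Rab3b at chr4:108941416-108941445, plus strand: ccagccatctaaAAGCACAatgaccagaag
Rab3b at chr4:108942202-108942231, plus strand: ctctttcttttaAAGCACAccttctatgag
Rab3b at chr4:108942504-108942533, plus strand: tctctttgatttAAGCACAagaatcatggc
mmu-miR-96-5p: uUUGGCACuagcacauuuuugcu
Rab3c at chr13:110060067-110060096, minus strand: ctcttaacctctGTGCCAAatgccaagaga
Rab3c at chr13:110055359-110055388, minus strand: gacatatgaagaGTGCCAAtcatattaagt
Rab3c at chr13:110055207-110055236, minus strand: agcaaagacttaGTGCCAAattagaaggga

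The miR-218 match, AAGCACA, occurs in 16.4% of the regions searched and in 18 members (29%), and the miR-96 match, GTGCCAA, in 10.2% and in 9 members (14.5%). The 3 members that rose hold matches for a median of 2 of the 17 seeds and the 6 that fell for a median of 5, beside 3 over the 53 other members searched and 2 over all regions. Their regions had median lengths of 2511, 2936, 2171 and 1261 bases in the same order, and longer regions have more room for matches. These medians describe members grouped by their call and were not tested.

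Of the 13 tested synaptotagmins, the calcium sensor family, 0 passed limma, while Syt2, Syt7 and Syt1 had an unadjusted p below 0.05. Syt2, the fast sensor of synapses that fire at high rates, was at 297, 341 and 277 TPM in wild type and 181, 205 and 253 TPM in knockout. The Syt2 groups did not overlap (log2 difference -0.53, SE 0.14, adjusted p = 0.0707), and without knockout replicate 3 the difference passed (-0.66, adjusted p = 0.0417). Syt1, the fast sensor of most forebrain synapses, was at 29.8, 45.6 and 25.1 TPM in wild type and 82.8, 38.1 and 68.6 TPM in knockout (log2 difference 0.87, SE 0.30, adjusted p = 0.123), and knockout replicate 2 lay within the wild-type range. Syt1 held 9.11%, 11.8% and 8.31% of the pair's summed TPM in wild type and 31.4%, 15.7% and 21.4% in knockout. Syt2 was the more abundant of the pair in all 6 libraries.

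The other synaptotagmins spanned a wide range of levels. Syt7, a high-affinity calcium sensor of asynchronous release and vesicle replenishment, was at 19.2, 13.8 and 11.3 TPM in wild type and 7.57, 7.33 and 8.19 TPM in knockout, without overlap (log2 difference -0.83, SE 0.23, adjusted p = 0.0707). Syt11, which does not bind calcium, was the most abundant synaptotagmin, at 599 ± 39.5 and 570.5 ± 32.3 TPM in wild type and knockout. Syt4 was at 117 ± 8.25 and 115 ± 24.0 TPM and Syt3 at 83.8 ± 2.38 and 74.4 ± 3.71 TPM.

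Of the syntaxins, most of which act on membranes other than the synaptic one, Stx7 fell. Stx7, of late endosomes, was at 212, 213 and 198 TPM in wild type and 146, 135 and 167 TPM in knockout and fell by 0.48 on the log2 scale (SE 0.11, adjusted p = 0.0484; chr10:24149302-24190222). That call was kept in 5 of 18 alternatives and lost under median-of-ratios rescaling (adjusted p = 0.0776) and quantile normalization (0.0518) and without any library other than knockout replicate 3. Stx18, a syntaxin of the endoplasmic reticulum, was at 28.7 ± 3.70 and 18.9 ± 2.33 TPM in wild type and knockout without overlap (log2 difference -0.58, adjusted p = 0.0808). Stx12, an endosomal syntaxin and the most abundant of the family, was at 295 ± 11.8 and 293 ± 35.0 TPM. Stx1a, a syntaxin of the presynaptic membrane, was at 1.95, 2.25 and 2.79 TPM in wild type and 2.12, 1.05 and 2.13 TPM in knockout. Over the family, 2 fell, 0 rose and 12 of the 14 tested did not pass, with a median log2 difference of -0.22.

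Among syntaxin-binding proteins, Stxbp6 fell. Stxbp6 (amisyn) has a SNARE-like domain that pairs with syntaxin and SNAP-25 in place of Vamp. It was at 40.9, 41.7 and 28.5 TPM in wild type and 8.43, 20.3 and 7.5 TPM in knockout, without overlap, and fell by 1.65 on the log2 scale (SE 0.34, adjusted p = 0.0289; chr12:44852484-45074709). The call was kept in 10 of 18 alternatives, the satellite glia covariate among them (-2.15, adjusted p = 0.0222). Leaving out any single library other than knockout replicate 2 ended it (adjusted p from 0.0543 to 0.109). It was also lost with no filter on low rows (0.0682), without the intensity trend (0.0895) and in replicates 1 and 2 of each group alone (0.0827). The tomosyns Stxbp5l and Stxbp5, which restrain SNARE assembly, were at 76.9 ± 3.59 and 69.2 ± 3.96 TPM and at 41.6 ± 7.86 and 38.0 ± 5.64 TPM.

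Sv2a had the largest fall on the log2 scale among the tested members, though not in every alternative. SV2 proteins are transporter-like glycoproteins of the vesicle, and Sv2a is the binding site of the antiepileptic levetiracetam. Sv2a was at 60.4, 84.7 and 60.3 TPM in wild type and 20.8, 7.61 and 30.9 TPM in knockout (chr3:96181151-96195521). The groups did not overlap, and from means of 68.5 ± 14.0 and 19.8 ± 11.7 TPM (SD, n = 3 each) it fell by 1.92 on the log2 scale (SE 0.41, adjusted p = 0.0331). The call was kept in 11 of 18 alternatives and lost, among others, without wild-type replicate 1, 2 or 3 (adjusted p = 0.0526, 0.085 and 0.0797), without knockout replicate 1 (0.0913) and with the satellite glia covariate (0.125). Knockout replicate 2 had the lowest Sv2a value. Without that library the log2 difference of Sv2a was -1.38, beside -2.07 for Stxbp6 and -1.77 for Vamp8.

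The relatives of Sv2a were more abundant in every library. Sv2b was at 458, 568 and 524 TPM in wild type and 456, 424 and 379.9 TPM in knockout (log2 difference -0.30, adjusted p = 0.178). Sv2c was at 295, 279.5 and 344 TPM in wild type and 351, 262 and 301 TPM in knockout (log2 difference -0.01, adjusted p = 0.971, and 0.06 after median-of-ratios rescaling). Sv2a made up 6.50% to 9.08% of the 3 genes' summed TPM in wild type and 1.10% to 4.34% in knockout.

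The other vesicle proteins did not pass. Syp (synaptophysin), widely used as a synapse marker, was at 716, 900.3 and 829.9 TPM in wild type and 552, 584 and 699 TPM in knockout. The Syp groups did not overlap, and the log2 difference was -0.42 (SE 0.13, adjusted p = 0.0984). Syn1 (synapsin I), which holds vesicles in the reserve pool, was at 561, 422 and 398 TPM in wild type and 653, 621 and 486 TPM in knockout (log2 difference 0.36, adjusted p = 0.223). Its relatives Syn2 and Syn3 were at 128 ± 25.6 and 109.7 ± 12.3 TPM and at 5.52 ± 0.959 and 6.07 ± 1.01 TPM in wild type and knockout. Snap91 (AP180), a clathrin assembly protein of vesicle recycling, was at 367 ± 19.2 and 329.8 ± 8.21 TPM without overlap (log2 difference -0.15, adjusted p = 0.378).

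No complexin, active zone scaffold or SNAP protein passed. Cplx1, the complexin of fast synapses, was at 1762, 1777 and 1814 TPM in wild type and 1808, 1736 and 1778 TPM in knockout (log2 difference -0.01, SE 0.10, adjusted p = 0.97), with a sign that depended on the scaling. Pclo (Piccolo) was at 139.8, 135 and 148 TPM in wild type and 175, 137 and 134 TPM in knockout, and Bsn (Bassoon) at 30.7, 42.0 and 38.7 TPM in wild type and 36.0, 35.9 and 37.3 TPM in knockout. These values overlap for all 3 genes. Cplx2 was at 20.7 ± 7.37 and 22.3 ± 3.10 TPM in wild type and knockout. Rims1 was at 49.8 ± 6.99 and 50.0 ± 9.73 TPM in the more abundant of its 2 rows and, in the other, at 25.7, 29.8 and 34.6 TPM in wild type and 25, 31.8 and 27.2 TPM in knockout. The related Rims2 was at 25 ± 6.45 and 25 ± 3.34 TPM and Rims3 at 6.86 ± 3.0 and 6.63 ± 1.40 TPM. The 5 tested scaffold genes had log2 differences between -0.02 and 0.06, with SEs from 0.13 to 0.31, and the signs for Rims1 and Bsn depended on the scaling. Snap47 was at 113 ± 14.5 and 96.3 ± 17.5 TPM, Snap29 at 30.5 ± 3.77 and 33.1 ± 2.78 TPM and Snap23 at 3.61 ± 1.87 and 3.61 ± 0.881 TPM.

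Other genes of the pathway came from 4 lists of 66 genes, 64 of which were found by name. They gave 2 rises and 5 falls among 60 tested (11.7%, beside 5.03% of all tested rows). Groups did not overlap for 31.7% of them, beside 28.9% of all tested rows, and their median log2 difference was -0.04, beside -0.05. Of 13 active zone scaffold genes, Lin7a, a partner of the scaffold kinase CASK, rose from 50.9 ± 4.69 to 83.0 ± 4.05 TPM (log2 difference 0.70, adjusted p = 0.0163). Apba1 (Mint1), which binds CASK, fell from 104 ± 2.54 to 67.5 ± 7.18 TPM (-0.63, adjusted p = 0.0233). Erc1 (ELKS), which binds RIM and Bassoon, fell from 74.8 ± 17.6 to 39.0 ± 4.72 TPM (-0.90, adjusted p = 0.0331). The Lin7a and Apba1 calls were each kept in 11 of 18 alternatives and the Erc1 call in 10 of 18. Cask and Lin7b, at 91.0 ± 13.6 and 102 ± 15.1 TPM and at 93.5 ± 9.76 and 84.3 ± 4.45 TPM, did not pass.

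Of 14 tested genes of transmitter loading and the vesicle membrane, 1 rose and 2 fell. Slc17a6 (vesicular glutamate transporter 2) rose from 104 ± 2.43 to 151 ± 21.8 TPM (log2 difference 0.53, adjusted p = 0.0483). Slc17a7 (vesicular glutamate transporter 1), the more abundant of the pair, was at 242 ± 1.75 and 219 ± 13.8 TPM (-0.14, adjusted p = 0.43). Scamp5, a membrane protein of synaptic vesicles, fell from 130.3 ± 9.07 to 84.6 ± 12.3 TPM (-0.63, adjusted p = 0.0361), and Syngr1 (synaptogyrin 1), a relative of synaptophysin, from 126 ± 15.8 to 86.1 ± 7.48 TPM (-0.54, adjusted p = 0.0497). The Slc17a6 call was kept in 6 of 18 alternatives and lost without any single library and with the satellite glia covariate. The Scamp5 call was kept in 8 of 18, and the Syngr1 call in 5 of 18, median-of-ratios rescaling being among those that ended it. Sncg (gamma-synuclein), the most abundant gene of the 4 lists, was at 1237 ± 83.9 and 1516 ± 13.7 TPM (0.30, adjusted p = 0.12).

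Of 11 tested genes of vesicle priming and SNARE recycling, 1 passed: Unc13c (Munc13-3), a priming factor, fell from 4.72 ± 0.196 to 1.06 ± 0.127 TPM (log2 difference -1.48, adjusted p = 0.0237). The Unc13c call was kept in 8 of 17 alternatives and lost without any single library. Unc13a and Napb, of the same list, were not found by name and could not be tested. Nsf, the ATPase that takes spent SNARE bundles apart, was at 599 ± 9.10 and 589 ± 68.7 TPM (-0.03, adjusted p = 0.893, with a sign that depended on the scaling). Of 22 endocytosis genes 0 passed limma, and 2 above and 4 below wild type had an unadjusted p below 0.05. Of the most abundant of them, Cltc (clathrin heavy chain) was at 492 ± 23.2 and 469 ± 51.0 TPM and Clta (a clathrin light chain) at 394 ± 52.4 and 309 ± 37.1 TPM. Without wild-type replicate 2 or 3, or without knockout replicate 1 or 2, 0 of the 7 calls in these lists passed.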

How the data were processed

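RNA from parvalbumin-positive cells was sequenced in 6 libraries, 3 in each group. The deposited values are TPM, which the authors made with cutadapt, Bowtie2 and RSEM 1.2.7 on mm10, per the submitters' processing notes; their gene annotation was not given in the sources used here. TPM sums to 1000000 in each library and keeps no depth, so no counting interval can be given. Where a name had several rows, the row of highest mean was used. Differences were tested in limma 3.58.1 (R 4.3.3) with an intensity trend on log2(TPM + 1), over rows averaging 1 TPM or more, with Benjamini-Hochberg adjustment over all 13787 rows and a threshold of 0.05. A fold on this scale understates the change of low genes. There were 18 alternatives. Apart from the members not reported here, the text names every called member, the release core and the vesicle membrane list. In the other lists it names the called genes and up to 3 of the highest level. Other members were named after their values were seen. Results on 2 members and 1 sequence are not reported here. The members and lists were chosen with earlier results of these data known. Paralogs can share reads, and how RSEM split them was not tested. Sequences were read with Python 3.11.15 from RefSeq tables (GRCm38.p6) and the GENCODE vM21 annotation of GRCm38; 55 of 71 members matched a start region.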

Additional observations from a re-analysis of the deposited data

How the results depend on the processing

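Calls higher and lower, in that order, were 3 and 6 members, 2 and 5 other pathway genes, and 256 and 437 of all rows. They became 3 and 2 members, 1 and 2 other pathway genes, and 130 and 248 of all rows with no filter on low rows; 1 and 2 members, 0 and 0 other pathway genes, and 65 and 139 of all rows in replicates 1 and 2 of each group alone; 2 and 0 members, 0 and 1 other pathway genes, and 57 and 168 of all rows without the intensity trend; and 2 and 1 members, 0 and 0 other pathway genes, and 84 and 116 of all rows with the satellite glia covariate, which was chosen after seeing the data. Other pathway genes called higher came to 1 at a pseudocount of 0.1 TPM, and all rows called higher to 389 after quantile normalization. Leaving out 1 library at a time gave 0 to 4 members higher and 0 to 5 lower, 0 to 2 and 0 to 6 other pathway genes, and 48 to 348 and 116 to 487 of all rows. The deviations of same-numbered libraries from their group means had correlations of 0.0492, 0.0659 and 0.0382, beside -0.0976 to 0.0705 for the other combinations. With 3 libraries a group, these values cannot settle whether the numbers pair the libraries. Replicate 3 carried Ddx3y in both groups. A replicate block gave 3 and 5 members, 1 and 2 other pathway genes, and 188 and 341 of all rows, with Stx7 the member lost. The following genes were not called in any of these fits. After median-of-ratios rescaling the sign turned for Cplx1 (0.0637), Rab3a (0.00703), Rims1 (0.0657), Bsn (0.0542), Sv2c (0.0602), Scamp1 (0.0574) and Nsf (0.0403). After quantile normalization the sign turned for Rims1 (0.0475) and Bsn (0.0512). In replicates 1 and 2 alone the sign turned for Cplx1 (0.0014), Rims1 (0.0325), Bsn (0.00188), Sv2c (0.0769) and Nsf (0.00755). With array weights the sign turned for Bsn (0.0193), Sv2c (0.0268) and Nsf (0.00796). With the satellite glia covariate the sign turned for Cplx1 (0.0098), Rab3a (0.0579), Rims1 (0.102), Sv2c (0.139) and Syn3 (-0.0141). With single libraries left out the log2 difference took both signs for Cplx1 (-0.0222 to 0.00706), Cplx2 (-0.081 to 0.403), Rab3a (-0.153 to 0.0419), Rims1 (-0.105 to 0.163), Rims2 (-0.105 to 0.214), Bsn (-0.145 to 0.0763), Pclo (-0.0583 to 0.133), Sv2c (-0.118 to 0.0912), Syn3 (-0.00933 to 0.196), Scamp1 (-0.0669 to 0.0211), Nsf (-0.126 to 0.0161) and Cltc (-0.145 to 0.0121). The cause of these shifts was not tested. Depth behind the TPM values is unknown, and 3 libraries a group limit the precision.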
